A study of Mus musculus with 4 samples.

Results

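The genes described here are 51 genes of the cell cycle, compared between mouse small intestinal organoids and the crypts from which they were grown. They were taken from the deposited arrays by gene name, and comprise 24 genes of the G1/S transition and DNA replication and 27 genes of the G2 phase and mitosis (G2/M). All 51 were among the 15536 genes tested. Crypts are the pits of the intestinal epithelium that hold its stem cells and most of its dividing cells. Crypts of 2 mice were each divided. One portion was embedded in Matrigel, a basement membrane gel, and kept for 1 week in a medium with the growth factors EGF, R-spondin and Noggin, in which closed epithelial structures, the organoids, form. The other portion gave RNA without culture. Both tissues were labelled as epithelium of the same animals, and the strain, sex and age of the mice are not given in the sources used here.

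Each mouse had 2 Agilent arrays, on which its organoid and crypt RNA competed in opposite dyes. Each value is the log2 of organoid over crypt signal, so that a positive value means more RNA in organoids. Where 4 values are given, those of mouse 1 come before those of mouse 2, and for each mouse the array with the organoid in Cy5 comes before the array with the organoid in Cy3. The arrays of a mouse repeat the same RNAs and were averaged, so n = 2 mice and ± is the SD of 2 mouse means. A gene passed the test at an adjusted p under 0.05 (limma's moderated test of the 2 mouse means against 0, two-sided, Benjamini-Hochberg over all genes). In whole tissue, fewer dividing cells and less RNA per dividing cell cannot be told apart, and equal levels do not show equal division rates.

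A cell that commits to division switches on cyclin E and the E2F transcription factors, loads the MCM helicase onto replication origins, makes nucleotides and copies its DNA. Later, cyclin A, cyclin B and their kinase Cdk1 drive it into mitosis, where the spindle checkpoint holds back the anaphase-promoting complex until all chromosomes are attached. The RNAs of these steps are themselves periodic. Genes of the G1/S wave carry E2F sites in their promoters, and genes of the G2/M wave carry a cell cycle homology region (CHR), often with CCAAT boxes bound by NF-Y. In the small intestine, dividing progenitors fill the crypt and stop dividing as they move towards the villus.

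Promoters of 5 members are shown for these elements. Each line gives the 250 bases before the RefSeq transcription start on the gene's own strand (RefSeq, GRCm38.p6), with every match to a searched word in capitals on either strand. Ccne1 is shown as the member with the lowest ratio, Mcm5 and Cdc6 as the lowest G1/S members with an E2F word, and Cdk1 and Ccnb2 as the G2/M members with the highest ratios among those with both a CHR word and a CCAAT box within these 250 bases. They lie at chr7:38107491-38107740 (minus strand), chr8:75109259-75109508 (plus), chr11:98907901-98908150 (plus), chr10:69352913-69353162 (minus) and chr9:70421555-70421804 (minus).
Ccne1: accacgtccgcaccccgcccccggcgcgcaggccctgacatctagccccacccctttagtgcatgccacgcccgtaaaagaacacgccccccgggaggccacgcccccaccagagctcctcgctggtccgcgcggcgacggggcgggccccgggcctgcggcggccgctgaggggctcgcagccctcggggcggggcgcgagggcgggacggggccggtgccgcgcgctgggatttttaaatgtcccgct
Mcm5: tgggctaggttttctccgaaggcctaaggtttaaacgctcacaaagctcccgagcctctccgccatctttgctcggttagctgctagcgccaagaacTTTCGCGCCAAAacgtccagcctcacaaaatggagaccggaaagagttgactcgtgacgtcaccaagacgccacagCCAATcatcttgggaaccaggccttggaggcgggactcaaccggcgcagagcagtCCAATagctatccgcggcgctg
Cdc6: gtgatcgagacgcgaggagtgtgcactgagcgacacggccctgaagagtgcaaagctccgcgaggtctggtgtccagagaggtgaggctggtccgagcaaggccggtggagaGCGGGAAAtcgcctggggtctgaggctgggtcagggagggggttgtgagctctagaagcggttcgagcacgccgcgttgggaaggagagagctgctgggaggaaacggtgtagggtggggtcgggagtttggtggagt
Cdk1: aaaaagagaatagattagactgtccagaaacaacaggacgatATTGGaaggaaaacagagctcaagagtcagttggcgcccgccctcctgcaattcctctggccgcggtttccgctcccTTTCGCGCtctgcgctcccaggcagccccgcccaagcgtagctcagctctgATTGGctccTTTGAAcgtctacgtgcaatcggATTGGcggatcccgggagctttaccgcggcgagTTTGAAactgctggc
Ccnb2: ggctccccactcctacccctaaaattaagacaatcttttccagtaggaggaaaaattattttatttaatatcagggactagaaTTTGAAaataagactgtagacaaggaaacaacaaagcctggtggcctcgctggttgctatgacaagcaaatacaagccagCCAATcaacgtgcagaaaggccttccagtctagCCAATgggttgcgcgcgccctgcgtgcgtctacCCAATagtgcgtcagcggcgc

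The Mcm5 promoter holds E2F words that overlap each other and begin 153 and 149 bases before the start, with CCAAT boxes 77 and 22 bases before it. Cdc6 has 1 E2F word, on the reverse strand, 138 bases before the start. Cdk1 holds all 3 elements: an E2F word at 131 bases, CHR words at 71 and 15 bases, and CCAAT boxes at 208, 80 and 48 bases before the start. Ccnb2 has a CHR word at 167 bases and CCAAT boxes at 87, 54 and 21 bases. The GC-rich Ccne1 window (76.0% G or C) holds none of the words, which says only that these letters are not in it.

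Over the members, the G1/S and G2/M genes differed in these elements. The words searched, on both strands, were TTTCCCGC, TTTGGCGC, TTTCGCGC and TTTGCCGC for E2F, TTTGAA and TTCGAA for the CHR, and CCAAT for NF-Y, and each element was counted without regard to overlap with another. The windows ran from 250 bases before to 50 bases after the start, and 42 of the 51 members had one, 21 of the G1/S and 21 of the G2/M genes. An E2F word was present in 10 of 21 G1/S genes (47.6%) and 1 of 21 G2/M genes (4.76%), against 2.6% of all 27025 genes with a window. A CHR word was present in 4 G1/S genes (19.0%) and 16 G2/M genes (76.2%), against 21.7% of all genes. The CCAAT box was present in 12 (57.1%) and 18 (85.7%), against 41.1% of all genes. A CHR word and a CCAAT box stood together in 3 G1/S genes and 16 G2/M genes, against 9.65% of all genes. A match of letters describes the window and is not a mapped binding site.

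**Figure D1:**
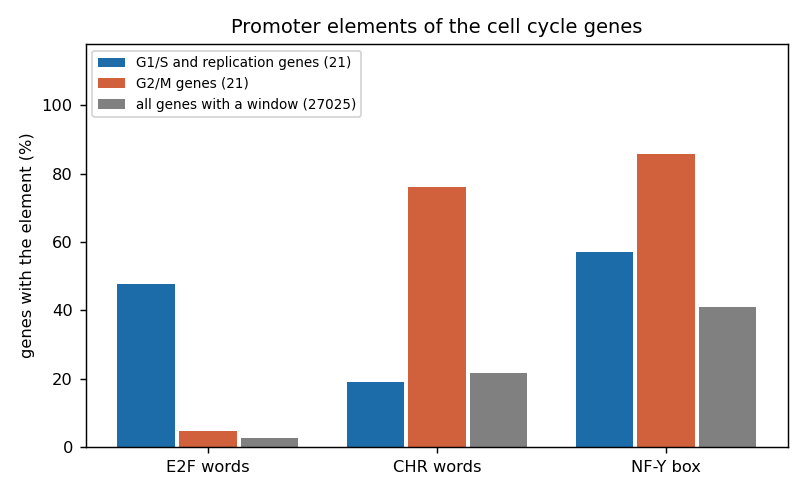
Share of genes (percent, vertical axis from 0) whose promoter window holds each element, for 21 G1/S and replication genes, 21 G2/M genes and all 27025 genes with a window. E2F words stand out in the G1/S genes (47.6%) and CHR words in the G2/M genes (76.2%).

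No member passed the test between organoids and crypts. Of all genes tested, 11.0% passed it, 849 higher and 853 lower in organoids. At an unadjusted p under 0.05, 1 member was higher (Cdc2a), against 14.5% of all genes, and 5 were lower (Ccne1, Fen1, Tk1, Mcm5 and Rrm2), against 13.2% of all genes. In both mice 50 of the 51 genes (98%) stayed within 2-fold of the crypt level, compared with 90.9% of all genes. The exception was Ccne1, in mouse 2. All 51 members were well above background in all 8 channels. Their median log2 intensity was 11.98, against 9.84 for all genes. Hmmr (8.51), Ccne2 (8.77) and Cdc25c (8.83) were among those below the median of all genes. The smallest mean log2 ratio that passed anywhere on the array was 0.59 in size, which 2 members and 14.4% of all genes reached, so changes smaller than that could not be called with 2 mice. The 95% confidence interval of a member reached 0.35 (median) to either side of its mean on the log2 scale.

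**Figure D2:**
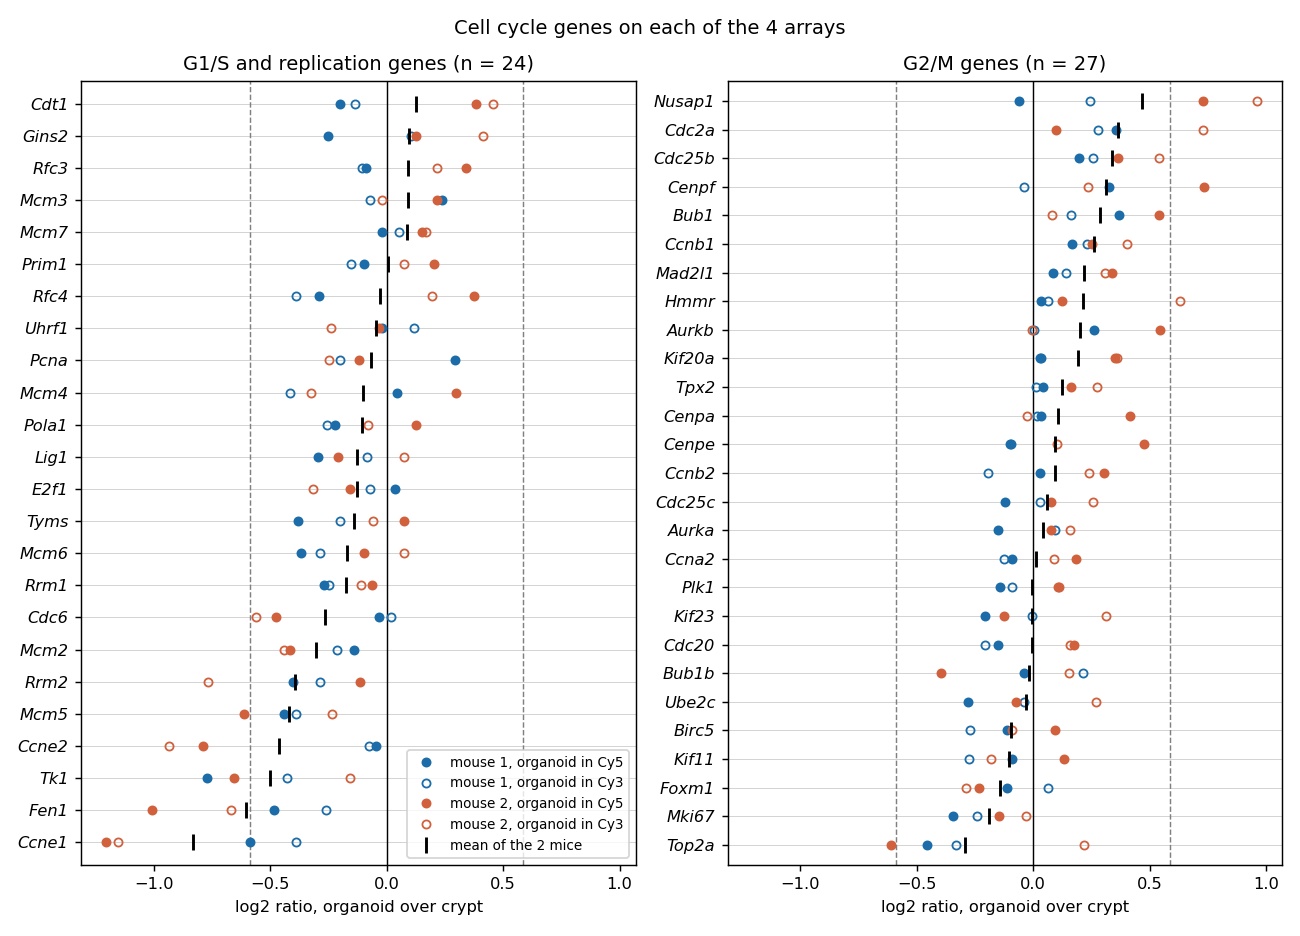
Log2 ratio of organoid over crypt (horizontal axis) of each G1/S and replication gene (left, n = 24) and each G2/M gene (right, n = 27) on each of the 4 arrays. Filled circles are arrays with the organoid in Cy5, open circles those in Cy3, and black bars the mean of 2 mice. Dashed lines mark the smallest mean change called for any gene, 0.59, which Ccne1 and Fen1 exceed.

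In the mean of 2 mice, the medians of the G1/S and G2/M genes lay on opposite sides of the median of all genes. Replication genes had a median log2 ratio of -0.13 ± 0.07 (mice -0.18 and -0.08) and G2/M genes one of 0.09 ± 0.15 (mice -0.02 and 0.19), beside 0.02 over all genes. The mean ratio was below 0 for 18 of the 24 G1/S genes and above 0 for 17 of the 27 G2/M genes, beside 45.7% of all genes below 0 and 54.3% above it. The count of G2/M genes above 0 was thus near that of all genes. Lower on all 4 arrays were 8 G1/S genes and 1 G2/M gene (Mki67), against 21.7% of all genes, and higher on all 4 were 0 G1/S and 8 G2/M genes, against 25.4% of all genes. The G2/M median exceeded the G1/S median by 0.15 and 0.21 on the arrays of mouse 1 and by 0.24 and 0.35 on those of mouse 2, and by 0.22 ± 0.08 in the mean of 2 mice. The gap had the same sign on every array, but it was small. In mouse 1 both medians were below that of all genes (0.01), the G2/M median only slightly (-0.02). The opposite sides were thus seen in mouse 2 and in the mean, not in mouse 1. With arrays only centred on their medians, in place of loess, the median of all genes moved to 0.17, that of the G1/S genes to 0.20 and that of the G2/M genes to 0.35. Relative to all genes the G1/S median was then 0.04 and the G2/M median 0.18, so the sign of the G1/S shift depended on the normalization, while the gap of 0.15 kept its sign. Of the 22 members given by array below, 8 had a mean on the other side of 0 with that centring (E2f1, Pcna, Tyms, Rfc4, Mki67, Kif11, Ube2c and Foxm1). No test was made over genes.

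**Figure D3:**
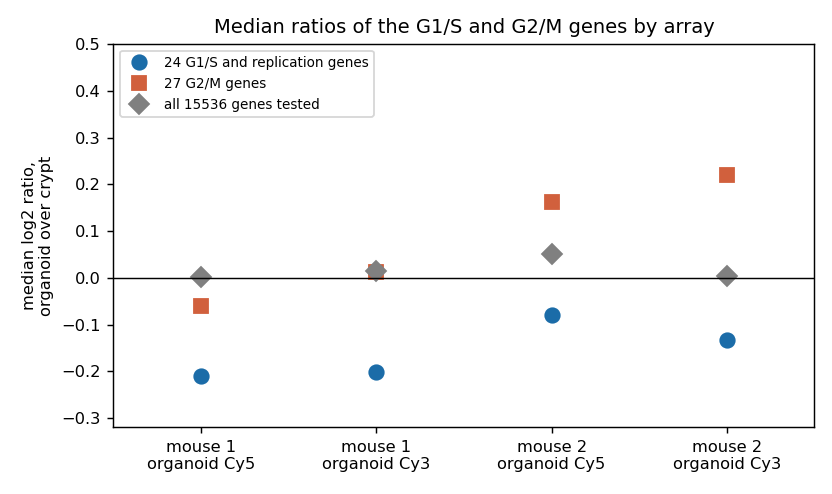
Median log2 ratio of organoid over crypt (vertical axis) of the 24 G1/S and replication genes, the 27 G2/M genes and all 15536 genes tested, on each of the 4 arrays. The G2/M median is above the G1/S median on all 4 arrays, by 0.15 to 0.35.

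Ccne1, at the G1/S switch, had the lowest ratio, followed by Fen1 of the replication fork and Tk1 of nucleotide supply. Ccne1 encodes cyclin E1, which activates the kinase Cdk2 for entry into S phase, and its probe lies at chr7:38882937-38882960 in mm9. It had -0.59, -0.39, -1.20 and -1.15, all below 0, with mouse 2 well under mouse 1. The mean was -0.83 ± 0.49 (95% confidence interval -1.34 to -0.33, limma adjusted p = 0.0616), the largest in size of the 51. A second, dimmer Ccne1 probe had a mean of -0.53. Ccne2, which encodes the related cyclin E2, had -0.04, -0.07, -0.79 and -0.93, near 0 in mouse 1 and low in mouse 2 (mean -0.46 ± 0.57, adjusted p = 0.251). E2f1, a transcription factor that switches on G1/S genes, had 0.03, -0.07, -0.16 and -0.32 and a mean of -0.13 ± 0.15 (adjusted p = 0.620). By their brightest probes, the 2 cyclin E genes were below 0 on every array, E2f1 on 3 of 4. A second, dimmer Ccne2 probe had 0.06, -0.08, -0.72 and -0.85 (mean -0.40). With the scanner's ratios in place of the main fit, the Ccne2 mean was -0.69.

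Licensing loads the Mcm2 to Mcm7 helicase onto origins with the loaders Cdc6 and Cdt1. The 8 licensing genes ran from -0.42 to 0.13, 5 below 0 and 3 above. Mcm5, a helicase subunit, had -0.44, -0.39, -0.61 and -0.23, low on all 4 arrays, with a mean of -0.42 ± 0.01 (adjusted p = 0.107). Mcm2 had -0.14, -0.21, -0.41 and -0.44 (mean -0.30 ± 0.18, adjusted p = 0.241), again low throughout. The other subunits of the same ring lay closer to 0: Mcm6 averaged -0.17, Mcm4 -0.10, Mcm7 0.09 and Mcm3 0.09. The loader gene Cdt1 was the highest of the 24 G1/S genes, with -0.20, -0.14, 0.39 and 0.46 and a mean of 0.13 ± 0.42, so its sign turned between the mice. The other loader gene, Cdc6, whose promoter is shown above, averaged -0.26 ± 0.36, with mouse means of -0.01 and -0.52.

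At the replication fork 9 genes ran from -0.60 to 0.10. Fen1, the nuclease that trims the flaps of Okazaki fragments, had -0.48, -0.26, -1.01 and -0.67, below 0 on all 4 arrays (mean -0.60 ± 0.33, interval -1.02 to -0.19, adjusted p = 0.0829). Its partners were near 0. Pcna, the sliding clamp that holds Fen1 and the polymerases on DNA, had 0.29, -0.20, -0.12 and -0.25 (mean -0.07 ± 0.16, adjusted p = 0.814), and Lig1, the ligase that seals the fragments, averaged -0.13 ± 0.09. Prim1 and Pola1, subunits of the primase and polymerase alpha, averaged 0.0068 and -0.11. The clamp loader genes averaged 0.09 (Rfc3) and -0.03 (Rfc4). Rfc4 had -0.29, -0.39, 0.38 and 0.19, opposite in the 2 mice. Gins2, part of the active helicase, was highest of the fork genes with -0.25, 0.10, 0.13 and 0.41 (mean 0.10 ± 0.24), and Uhrf1, which keeps DNA methylation through replication, averaged -0.04.

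All 4 genes of nucleotide supply had means below 0, with a median of -0.28. Tk1, the S-phase thymidine kinase, had -0.77, -0.43, -0.66 and -0.16, low on each array (mean -0.50 ± 0.14, interval -0.85 to -0.16, adjusted p = 0.0810). The ribonucleotide reductase genes were lower on all 4 arrays as well, Rrm2 at -0.39 ± 0.07 (adjusted p = 0.128) and Rrm1 at -0.17 ± 0.12. Tyms, thymidylate synthase, had -0.38, -0.20, 0.08 and -0.06 and a mean of -0.14 ± 0.21, so mouse 1 lay under 0 and mouse 2 close to it.

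Of the 9 genes of mitotic entry, 7 had a mean above 0. Cdc2a, the name on the array of the gene now called Cdk1, encodes the kinase of mitotic entry. It had 0.36, 0.28, 0.10 and 0.73, above 0 on each array (mean 0.37 ± 0.07, interval 0.04 to 0.70, adjusted p = 0.147). Among the genes of its activators, the cyclin gene Ccnb1 had 0.17, 0.23, 0.25 and 0.40 (mean 0.26 ± 0.09, adjusted p = 0.274), and the phosphatase gene Cdc25b averaged 0.34 ± 0.16 (adjusted p = 0.191), both above 0 on all 4 arrays. Another Cdc25b probe of nearly equal brightness had a mean of 0.63, also above 0 on all 4. The others lay closer to 0, at 0.09 for cyclin B2 (Ccnb2), 0.06 for the phosphatase gene Cdc25c, 0.04 for the kinase gene Aurka, 0.01 for cyclin A2 (Ccna2) and -0.0047 for the kinase gene Plk1. Foxm1, a transcription factor of G2/M genes, was lowest of this role, with -0.11, 0.07, -0.23 and -0.29 and a mean of -0.14 ± 0.17 (adjusted p = 0.582).

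Genes of the spindle checkpoint and the anaphase-promoting complex ranged from -0.03 to 0.29. Bub1, a checkpoint kinase, had 0.37, 0.16, 0.54 and 0.08, above 0 on each array (mean 0.29 ± 0.03, adjusted p = 0.229). A dimmer Bub1 probe had -0.23, -0.08, 0.47 and 0.15, and the mean over both probes was 0.18. Mad2l1, the checkpoint protein that inhibits Cdc20, averaged 0.22 ± 0.15, also above 0 on each array. The remaining 3 genes were at about 0: Cdc20, the activator of the complex, at -0.0064, the checkpoint kinase-like gene Bub1b at -0.02, and Ube2c, its ubiquitin-conjugating enzyme, at -0.03. Ube2c had -0.28, -0.04, -0.08 and 0.27, with no common direction.

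Centromere and chromosome genes, 7 in number, ran from -0.29 to 0.31. Mki67, the widely used marker of dividing cells, had -0.34, -0.24, -0.15 and -0.03 (mean -0.19 ± 0.14, interval -0.54 to 0.15). Its values were below 0 on all 4 arrays but its interval included 0, and with arrays centred on their medians its mean was 0.15. Top2a, the topoisomerase that untangles chromosomes, was lowest with -0.45, -0.33, -0.61 and 0.22 (mean -0.29 ± 0.14, adjusted p = 0.241). Another tested Top2a probe had a mean of 0.06, so its probes lay on opposite sides of 0, and the mean over both was -0.11. The kinetochore gene Cenpf was highest with 0.33, -0.04, 0.73 and 0.24 (mean 0.31 ± 0.24, adjusted p = 0.251), and on both mice's arrays the value was greater with the organoid in Cy5. The passenger complex genes Aurkb and Birc5 averaged 0.20 and -0.10, the centromere histone gene Cenpa 0.11, and the kinetochore motor gene Cenpe 0.10, with Cenpe's 3 tested probes not of one sign.

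In the spindle and cytokinesis group Nusap1 had the highest ratio of all 51. It encodes a protein that binds and bundles spindle microtubules, and its probe lies at chr2:119475072-119475131 in mm9. It had -0.06, 0.24, 0.73 and 0.96, high in mouse 2 and near 0 in mouse 1 (mean 0.47 ± 0.53, adjusted p = 0.228). A dimmer Nusap1 probe had a mean of -0.22, so the probes disagreed by 0.69, and the mean over both was 0.12. Kif11, the motor that separates the spindle poles, was lowest with -0.09, -0.28, 0.13 and -0.18 (mean -0.10 ± 0.11). The kinesin genes of cytokinesis averaged 0.19 (Kif20a) and -0.0049 (Kif23), the spindle assembly factor gene Tpx2 0.12, and Hmmr, which encodes a spindle-associated protein, 0.21. By their brightest probes, Hmmr, Tpx2 and Kif20a were above 0 on all 4 arrays. A second, dimmer Kif20a probe had -0.05, 0.04, 0.32 and 0.38 (mean 0.17).

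Where an E2F word was present in a G1/S gene's window the median ratio was -0.08 (10 genes), and where it was not, -0.17 (11 genes). The G2/M genes with a CHR word had a median of 0.02 (16 genes), and those without one 0.22 (5 genes). These medians are given as a description, with no test. Ccne1, Fen1 and Tk1, the G1/S genes with the lowest ratios among those with a window, had no E2F word, and Nusap1 had none of the 3 elements.

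The ratio of some members differed between the mice. The difference of mouse 2 minus mouse 1 was tested with limma over all 4 arrays, with the dye as a covariate and Benjamini-Hochberg adjustment over all genes. Since the arrays of a mouse repeat its RNAs, this test measures a difference against technical spread, not between groups of mice. It called 5 of the 51 members, against 8.81% of all genes, a share near that background. The count was 13 without background subtraction and 3 with the mean over probes. The share of all genes called in those settings is not given here. Ccne1 (-0.69, adjusted p = 0.0313) and Ccne2 (-0.80, adjusted p = 0.0198) were lower in mouse 2, and Cdt1 (0.59, adjusted p = 0.0464), Rfc4 (0.62, adjusted p = 0.0406) and Nusap1 (0.75, adjusted p = 0.0229) were higher.

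The cyclin E genes differed between the mice in the organoid channels. On the normalized log2 intensity scale, Ccne1 had organoid values of 11.56 and 11.64 in mouse 1 and 10.86 and 10.79 in mouse 2, against crypt values of 12.15, 12.03, 12.06 and 11.94. Ccne2 had organoid values of 8.96, 8.99, 8.22 and 8.11, against crypt values of 9.01, 9.06, 9.0 and 9.04. Crypts of the 2 mice were thus close to each other for both genes, and the organoids were not. Nusap1 showed the same split, with organoid values of 11.81, 11.91, 12.34 and 12.58 against crypt values of 11.87, 11.66, 11.61 and 11.62. For Cdt1 both tissues moved, with organoid values of 13.41, 13.36, 13.69 and 13.70 against crypt values of 13.61, 13.50, 13.30 and 13.24. Rfc4 was like Cdt1, with organoid values of 12.38, 12.30, 12.69 and 12.56 against crypt values of 12.67, 12.68, 12.31 and 12.37.

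A smaller shift between the mice ran through the G2/M genes. Of the 27, 25 had a higher ratio in mouse 2, with a median difference of 0.20, and the exceptions were Bub1b and Foxm1. Among the 24 G1/S genes 14 were higher in mouse 2 (median difference 0.13), and among all genes 7781 of 15536 (median difference 0.00062). Of the 27, Nusap1 was the one whose difference passed the test. Across the 51 members the 2 mouse means correlated with r = 0.58, and across all 15536 genes with r = 0.77. Those correlations are across genes measured on shared arrays and are given as a description.

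**Figure D4:**
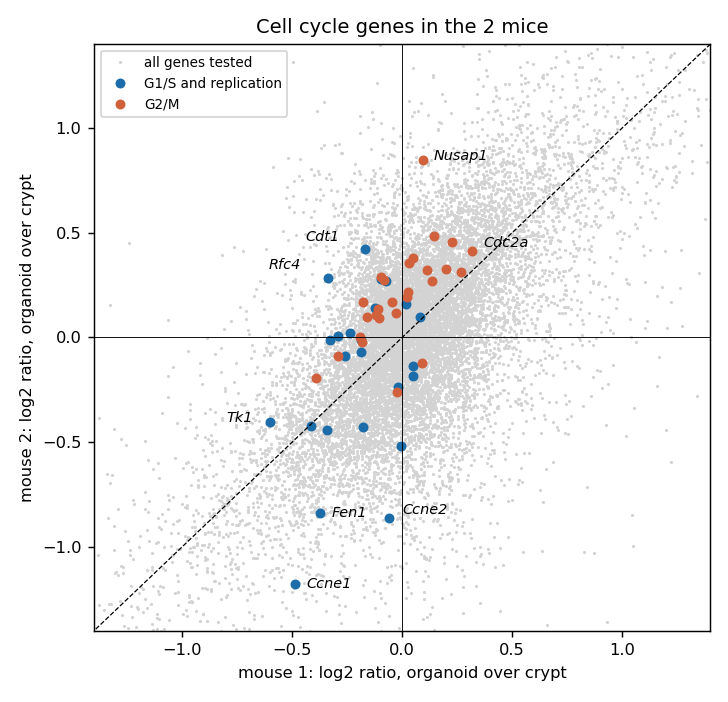
Log2 ratio of organoid over crypt in mouse 1 (horizontal axis) and mouse 2 (vertical axis), each the mean of 2 arrays, for all genes tested (grey; those beyond the axes are not drawn), the G1/S and replication genes (blue) and the G2/M genes (orange). The dashed line marks equal ratios, and 25 of the 27 G2/M genes lie above it.

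Other genes of the same pathways were examined as lists, beside the 11.0% of all genes that passed the test. None of 29 other replication factors (origin recognition, helicase and polymerase genes) passed the test, and their median was -0.06. Among 22 genes of the G1 cyclins, their kinases and the Rb/E2F family tested, 1 passed: Myc, a transcription factor that drives growth and entry into the cycle, rose by 0.78 ± 0.0032 (limma adjusted p = 0.0228, above 0 on all 4 arrays), and the list's median was -0.10. Myc had 0.79, 0.77, 1.07 and 0.50, so the arrays of mouse 2 differed by far more than the SD of the mouse means. Among 42 other mitotic genes 1 passed as well. It was Mad2l2, best known as a subunit of translesion DNA polymerase zeta, which rose by 0.61 ± 0.05 (adjusted p = 0.0454), and the list's median was 0.05.

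The list of CDK inhibitors and other brakes on division had 4 of 19 genes pass, against 11.0% of all genes. There were 2 in each direction, and the list's median was -0.05. Btg1, an antiproliferative gene, rose by 0.85 ± 0.06 (adjusted p = 0.0193), and the stress gene Gadd45b rose by 0.78 ± 0.09 (adjusted p = 0.0245). Its relatives Gadd45g and Gadd45a fell by 1.12 ± 0.26 (adjusted p = 0.0144) and 0.80 ± 0.13 (adjusted p = 0.0246). Members of 1 small family thus passed in opposite directions, and none of the 4 is a CDK inhibitor of the Cip/Kip or INK4 type. E2f4 and Cdkn2a were not among the genes tested.

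Some marker genes of cell types differed between organoids and crypts, beside the 11.0% of all genes that passed the test. All 8 enterocyte genes, which mark differentiated absorptive cells, fell, and their summed normalized intensity was 137739 and 124275 in organoids, against 602483 and 533674 in crypts (mice 1 and 2). Of the 5 crypt base genes, Lgr5, Smoc2 and Slc12a2 rose, while Ascl2 had -0.22 ± 0.12 and Olfm4 -0.09 ± 0.21 and did not pass. The list had sums of 35476 and 34061 in organoids against 24416 and 22915 in crypts. Of the 7 epithelial genes, Krt8 and Krt19 passed the test as lower and Krt18 as higher. The mean ratio was below 0 for 6 of the 7, with a median of -0.59. The list had sums of 349504 and 365925 in organoids against 451425 and 403662 in crypts. Of the 10 white blood cell genes 9 were tested and 2 fell, Cd3d and Cd3g, neither well above background in any organoid channel, with sums of 2201 and 2254 in organoids against 2865 and 2708 in crypts. This list was dim (median log2 intensity 7.91, against 9.84 for all genes). Scanner ratios were -2.51 for Cd3d and -3.15 for Cd3g, against -0.60 and -1.04 in the main fit. The sums of this list thus do not measure how much of its signal organoids kept. Of the 8 genes of stroma, muscle and vessels 3 were tested and Acta2 fell, with sums of 6988 and 6018 in organoids against 10600 and 8432 in crypts. Of these calls, Acta2 passed in 5 of 11 other settings (-0.31 with the mean over probes, adjusted p = 0.197), Cd3d in 5 of 10, and Slc12a2 and Krt19 in 6 of 11 each. The part of these cells in the cell cycle ratios was not tested.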

How the data were processed

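RNA of organoids and crypts of 2 mice was hybridised together on 4 two-colour Agilent whole mouse genome arrays, 1 dye swap per mouse. Per the file headers, the deposited intensity columns hold linear mean signals of the spots and medians of their local background in both dyes. The log10 ratios (Cy5 over Cy3) were deposited as computed by the scanner software, Agilent Feature Extraction 10.2.1.3 per the file headers and 9.5.3 per the submitters' processing notes. The authors' deposited matrix matched log2 ratios of Cy5 over Cy3 (r from 0.978 to 0.991 with the scanner's), each column had a median of 0, and the authors' way of centring it is unknown. Per the labels RNA was isolated with Trizol, whereas the design text names an RNeasy kit.

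Background was corrected by normexp (offset 50) and loess was applied within arrays, control spots having weight 0 (limma 3.58.1, R 4.3.3). Spots marked as outliers were dropped, and a probe's spots were averaged. A probe was tested if well above background in all 4 organoid or all 4 crypt channels. Genes were named by accession through RefSeq's GRCm38.p6 table (24844 of 41174 probes), otherwise by the file's name, and the brightest tested probe stood for a gene. Probe positions are in mm9, per the files, and were not assigned to exons or UTRs. Channel intensities are after Aquantile. Ratios were turned to organoid over crypt, dye swaps averaged, and 2 mouse means tested (lmFit, eBayes). With 2 mice there is 1 residual degree of freedom per gene, to which eBayes added 4.19 prior ones (prior SD 0.202). Both tests were also run on simulated data, and the outcome of those runs is not given here.

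The share of probes well above background was 51.4% to 61.6% in organoid channels and 53.7% to 67.1% in crypt channels. Across genes, the turned ratios of a dye swap correlated at 0.837 (mouse 1) and 0.850 (mouse 2). All 4 arrays shared 1 slide and 1 scan. Each array holds both tissues of the mouse numbered in the labels, so the comparison is paired by design. The number of arrays and mice limits the precision. The members and lists were chosen with earlier results of these data known. Arrays are given singly for the highest and lowest member of each role, for Mki67, Top2a, Pcna, Mcm2, Ccne1, Ccnb1 and Foxm1, for members whose probes disagreed in sign by over 0.5, and, added after their values were seen, for Ccne2 and Rfc4. Of other lists, the genes that passed are named, up to 4 a direction. Alternatives in normalization, background, source of ratios, dim-probe filter, probe choice, replication unit and dye were tried.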

Additional observations from a re-analysis of the deposited data

Results flagged for a closer look

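The organoid over crypt ratio differed between the mice, by limma's test of the mouse term over 4 arrays, for 5 of the 51 members. Of all genes 8.81% were called, so the members' share was near that background. Mouse 2 minus mouse 1 was -0.69 for Ccne1, -0.80 for Ccne2, 0.59 for Cdt1, 0.62 for Rfc4 and 0.75 for Nusap1. In Cdt1 and Rfc4 the mice lay on opposite sides of 0, at 0.42 and -0.17 for Cdt1 and at 0.28 and -0.34 for Rfc4 (mouse 2, then mouse 1). The test rests on technical repeats of 1 culture per mouse. The number of members called was 13 without background subtraction and 3 with the mean over probes. The share of all genes called in those settings is not given here. How far cultures of 1 mouse differ was not tested.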

How the results depend on the processing

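No member was called higher under any alternative. Members were called lower under 3 of them: 4 with 4 arrays and a dye effect (Ccne1, Mcm5, Tk1 and Fen1, where 23.9% of all genes passed), the same 4 with the mouse as a random replicate block (19.8% of all genes, chosen after seeing the data), and 2 with the organoid in Cy5 alone (Ccne1 and Tk1, 14.1% of all genes). The first 2 of these count arrays of the same RNAs as samples. The count over all genes, 1702, was 3709 and 3081 in those fits, 230 with arrays centred on their medians, 908 with the organoid in Cy3 alone and 677 when dim probes were kept. Median centring moved the G1/S median to 0.20 and the G2/M median to 0.35, with the median of all genes at 0.17. The G2/M median stayed above the G1/S median in every setting (gap from 0.15 to 0.29). Leaving out 1 mouse gave G1/S medians from -0.18 to -0.08, G2/M medians from -0.02 to 0.19 and gaps from 0.16 to 0.27. Members called between the mice, 5 in the main fit (8.81% of all genes), were 13 without background subtraction and 3 with the mean over probes. For those settings the share of all genes is not given here. Of 286 values of 22 named members under the alternatives, 244 moved by less than the SD of the mice without a call, 32 moved by more, and 10 passed the test in the same direction. Part of this tally was fixed in advance. Leaving out 1 of 2 mice always moves a mean by less than their SD. The fits of 4 arrays and the dim-probe filters left each named member's estimate unchanged. The 244 is therefore not a measure of stability. Signs turned for 8 named members with median centring, 4 with the organoid in Cy5 alone (Pcna, Rfc4, Gins2 and Kif11), and 1 with it in Cy3 alone (Ube2c). They also turned for 3 without mouse 1 (Tyms, Rfc4 and Ube2c) and 3 without mouse 2 (Cdt1, Pcna and Gins2). Of other cycle genes, Mad2l2 passed in 5 of 11 settings, Myc, Btg1, Gadd45a and Gadd45b in 7, and Gadd45g in 9, with no change of sign. A random mouse block together with a dye effect could not be fitted on 4 arrays, and a slide or scan block could not be made because all arrays shared both.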
